A study of Mus musculus with 6 samples.

Results

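The genes described here are the Smyd lysine methyltransferases Smyd1, Smyd2, Smyd3, Smyd4 and Smyd5, together with Tnni1, which encodes the slow skeletal isoform of troponin I. They were taken by symbol from the deposited table, which lists 36814 genes, and all 6 were found there. Smyd1 and Tnni1 were chosen for their levels in proprioceptors of the tibialis anterior muscle (TA), including in libraries without muscle transcripts. Their differences between muscles and between TA libraries are therefore descriptions without a test. RNA was measured in 3 pools of proprioceptors supplying TA and 3 supplying the gastrocnemius muscle (GS) of mice at postnatal day 1. All pools came from the reporter line Pv::YFP, in which parvalbumin neurons carry a fluorescent protein. The tracer ctb-555 had been put into the muscle at postnatal day 0, and each pool held 25 to 30 neurons picked by hand. TA flexes the ankle and GS extends it. The labels call the pools biological replicates. No strain is given in the sources used here, nor whether pools came from different animals, so the spread between pools may be partly technical.

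Smyd proteins share a SET domain, which transfers methyl groups to lysines, interrupted by a MYND zinc finger, which binds other proteins. Smyd1 is known from heart and skeletal muscle, where it is needed for sarcomere assembly and partners with a muscle form of Naca. Smyd2 and Smyd3 methylate histones and cytosolic proteins in many tissues. Troponin I is the inhibitory subunit of the troponin complex, which with troponin T and troponin C makes thin filaments respond to calcium. Tnni1 is the isoform of slow and developing muscle, Tnni2 that of fast muscle and Tnni3 that of heart.

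The promoters of Smyd1 and Tnni1 are shown because these are the members whose levels the description turns on, and that of Smyd2 because it was present in all libraries. Each line gives the 250 bases before the annotated start, 5′ to 3′ on the gene's strand, from RefSeq on GRCm38.p6. Promoter entries were matched for Smyd1, Smyd2, Smyd4, Smyd5 and Tnni1. In Smyd1 (chr6:71262282-71262531, minus strand) capitals mark a stretch within 1 mismatch of both the MEF2 consensus and the CArG box consensus, which are bound by MEF2 factors and serum response factor. In Tnni1 (chr1:135799171-135799420, plus strand) capitals mark the E-box CAGCTG and a stretch within 1 mismatch of the MEF2 consensus. In Smyd2 (chr1:189922292-189922541, minus strand) capitals mark CG dinucleotides.
Smyd1: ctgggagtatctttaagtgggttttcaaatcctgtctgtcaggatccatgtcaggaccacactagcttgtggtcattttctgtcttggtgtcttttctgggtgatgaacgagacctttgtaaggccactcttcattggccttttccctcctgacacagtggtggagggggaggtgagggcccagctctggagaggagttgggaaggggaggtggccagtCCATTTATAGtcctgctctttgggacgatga
Tnni1: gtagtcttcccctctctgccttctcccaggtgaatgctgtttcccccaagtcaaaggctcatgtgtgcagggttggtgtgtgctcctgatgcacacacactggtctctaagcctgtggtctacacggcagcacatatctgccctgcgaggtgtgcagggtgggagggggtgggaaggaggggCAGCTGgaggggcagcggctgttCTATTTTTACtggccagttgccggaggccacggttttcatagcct
Smyd2: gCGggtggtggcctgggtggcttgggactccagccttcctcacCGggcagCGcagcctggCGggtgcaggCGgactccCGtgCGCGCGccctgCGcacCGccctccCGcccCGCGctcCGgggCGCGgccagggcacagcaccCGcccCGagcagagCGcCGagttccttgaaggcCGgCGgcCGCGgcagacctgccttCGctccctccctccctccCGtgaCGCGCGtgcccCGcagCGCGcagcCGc

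The promoters differed in CG content. Smyd1 had 2 CG dinucleotides in the 250 bases and Tnni1 had 5, against 34 in Smyd2, 28 in Smyd4 and 10 in Smyd5. The median over 32841 promoters was 6, and 18.8% of them had fewer than Smyd1, against 96.5% for Smyd2. Both strands were searched for the E-box CANNTG, which includes CAGCTG, and for the MEF2 and CArG consensus. The E-box CAGCTG of Tnni1 lies 68 to 63 bases before the printed start, and this motif was in 13.0% of all promoters. Before a second annotated start of Tnni1, with 6 CG dinucleotides, the same E-box lies at 158 to 153 bases and the MEF2-like stretch at 135 to 126. The marked MEF2-like stretches lie 31 to 22 bases before the start of Smyd1 and 45 to 36 bases before that of Tnni1. With 1 mismatch allowed, 25.0% of all promoters had a MEF2 match and 18.6% a CArG match. No exact match to either consensus was in the printed windows of Smyd1 or Tnni1, where exact matches occur in 2.92% and 1.47% of promoters. The broader CANNTG was in 66.2% of promoters, those of Smyd4 and Tnni1 included, and had no match in Smyd1, Smyd2 or Smyd5. The allowance of 1 mismatch was chosen after the sequences were seen. These letters are a description and show no binding.

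Levels are given as deposited RPKM, per gene length and library size, on which scale genes are compared. They are net values, since 683 genes, none of them a member, have values below 0, and the sources used here do not say how these arose. Libraries held between 7038296 reads in genes (TA replicate 2) and 21125960 (TA replicate 3). All 11 proprioceptor markers were above 0 in each library, among them Etv1 at 202 to 323 RPKM and the neurotrophin receptor Ntrk3 at 25.5 to 56.1 RPKM. Pvalb, which encodes parvalbumin, spanned 47.8 to 93.5 RPKM among TA pools and 4.26 to 31.3 RPKM among GS pools, without overlap. For Etv1 the split ran the other way, with 202 to 264 RPKM for TA and 313 to 323 RPKM for GS. Among the 11 markers, 2 (Pvalb and Whrn) had every TA value above every GS value, as had 13.1% of the 10828 genes tested. Only 1 (Etv1) had the reverse, as had 3.48% of genes tested, and nothing is read from these counts. Whether these marker differences bear on those of the members was not tested. TA replicate 3 stood apart in transcripts of other cell types. Its 16 skeletal muscle markers summed to 341 RPKM, with 15 of 16 above 0, against 0.357 to 5.43 RPKM and 4 to 7 of 16 in the other 5 libraries. For the 7 markers of connective tissue and vessels the sum was 34.5 RPKM in that library against 0.717 to 6.26 RPKM elsewhere, and for the 5 blood and immune markers 25.8 RPKM against 0 to 4.88 RPKM. Markers of glia (90.2 to 194 RPKM in sum) and of nociceptors (27.8 to 168 RPKM) were present in every library, and of the 3 motor neuron markers in the table Chat and Mnx1 were listed at 0 in all, while Isl2 was at 1.70 to 7.46 RPKM. The muscle differences of Smyd1 and Tnni1 are therefore also given without TA replicate 3. A lower value in a pool can come from fewer cells of a type or from less RNA per cell, which cannot be told apart here.

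Smyd1 (ENSMUSG00000055027, chromosome 6, 71163934 to 71212275, minus strand, mm9) had levels of 31.1 RPKM in TA replicate 1, 31.0 RPKM in TA replicate 2 and 36.6 RPKM in TA replicate 3. In GS it was at 0.907 RPKM in replicate 1, was listed at 0 in replicate 2 and was at 4.24 RPKM in replicate 3. All 3 TA libraries lay far above all 3 GS libraries, and the TA values differed little among themselves. These levels rested on 1693, 1456 and 4313 reads in TA and on 54, 0 and 256 reads in GS. Smyd1 averaged 32.9 ± 3.24 RPKM over the TA pools and 1.72 ± 2.23 RPKM over the GS pools (SD, n = 3), a 19.2-fold difference. Among the 10828 genes tested, Smyd1 stood above 90.6%, 91.8% and 92.2% of genes in TA replicates 1, 2 and 3. In GS replicates 1, 2 and 3 it stood above 18.1%, 0% and 50.3%. Of the 6 members, Smyd1 alone had TA values that did not overlap the GS values, a pattern found towards TA in 13.1% of all genes tested and towards GS, where no member had it, in 3.48%. The choice of Smyd1 used this contrast, so nothing is read from that count.

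**Figure D1:**
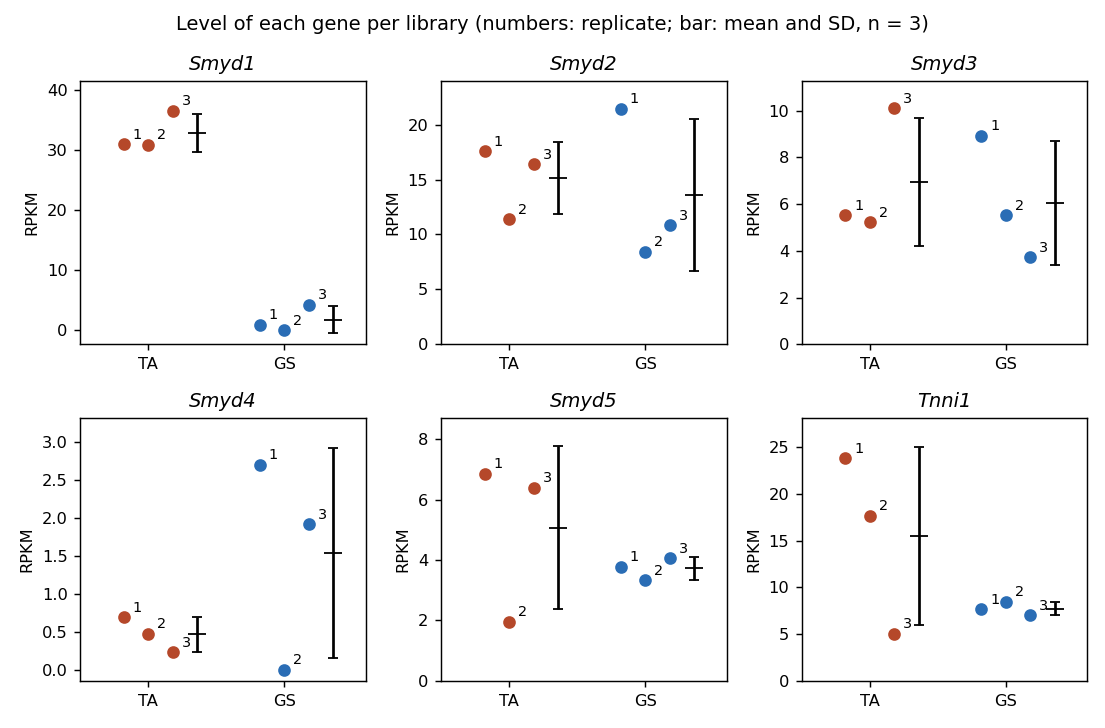
RPKM of each member per library, with TA and GS on the horizontal axis, points numbered by replicate and bars for the mean and SD (n = 3). Smyd1 sits between 31.0 and 36.6 RPKM in TA and at most at 4.24 RPKM in GS. Tnni1 is lowest in TA replicate 3, and the other Smyd genes overlap between muscles.

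Of the 395 genes that the authors' deposited table lists towards TA, 1.07% of all genes, Smyd1 is the only member. The authors' deposited table gives Smyd1 an RPKM of 31.1 for TA against 1.82 for GS, a TA over GS ratio of 17.1. Of the 395 genes, 52 have an adjusted p-value under 0.05 there. The 395 also hold muscle genes high in TA replicate 3 alone. Among these are Myh3, Actc1 and Tnnt3, at 43.2, 55.3 and 28.7 RPKM in that library and at most 0.111 RPKM elsewhere. Towards GS the authors' deposited table holds 334 genes, 0.907% of all genes, and no member. Both tables rest on the same 6 libraries and add no independent support.

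TA replicate 3 was then set beside TA replicates 1 and 2, since Smyd1 and Tnni1 are both known as muscle genes. Both had been chosen for even levels over the TA libraries without muscle transcripts, so the values below describe them and are no check. In TA replicates 1 and 2 the 16 skeletal muscle markers summed to 1.30 and 0.548 RPKM, and the sarcomeric actin Actc1, the neonatal myosin Myh8 and the fast troponin genes Tnni2, Tnnt3 and Tnnc2 were listed at 0. In these same 2 libraries Smyd1 averaged 31.0 RPKM, 18.1 times its mean in GS. TA replicate 3 exceeded that average by 5.62 RPKM, or 1.18-fold. Myod1, the master regulator of the myogenic lineage, was listed at 0 in all 6 libraries. Myog, which drives myoblast differentiation, reached 0.0820 RPKM in TA replicate 3 and was listed at 0 elsewhere. The myogenic factor Myf6 was at 2.62 RPKM in TA replicate 3 and also listed at 0 elsewhere. On the log2(RPKM + 1) scale the Smyd1 difference (TA minus GS) was 3.97 ± 0.56 (SE) over all 6 libraries and 3.89 without TA replicate 3.

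Tnni1 (ENSMUSG00000026418, chromosome 1, 137679642 to 137707566, plus strand, mm9) showed another pattern. In TA its level was 23.8 RPKM in replicate 1, 17.7 RPKM in replicate 2 and 5.06 RPKM in replicate 3. In GS the corresponding levels were 7.65, 8.46 and 7.03 RPKM. Its highest levels were in TA replicates 1 and 2, and TA replicate 3, the library with sarcomere transcripts, had the lowest level of all 6. The 3 GS values lay close together, and the TA values fell on both sides of them, so the groups overlapped. Tnni1 averaged 15.5 ± 9.56 RPKM over the TA pools and 7.71 ± 0.713 RPKM over the GS pools (SD, n = 3), a 2.01-fold difference smaller than the spread within TA. Without TA replicate 3 the TA mean was 20.7 RPKM, 2.69 times the GS mean, and the log2 difference rose from 0.70 to 1.31. The log2 difference was 0.29 without TA replicate 1 and 0.50 without TA replicate 2, so its size depends on which TA library is left out. Whether the muscle transcripts of TA replicate 3 bear on its low Tnni1 was not tested. Reads behind these values numbered 621, 397 and 285 in TA and 218, 285 and 203 in GS.

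The other troponin genes, apart from Tnni3, did the opposite in TA replicate 3. Tnnt3, the fast skeletal troponin T, was at 28.7 RPKM there, Tnnc2, the fast troponin C, at 14.7 RPKM and Tnni2, the fast troponin I, at 8.24 RPKM, and all 3 were listed at 0 in the other 5 libraries. Tnnt2, the cardiac and embryonic troponin T, was at 5.81 RPKM there and listed at 0 in the others. Tnnt1, the slow troponin T, was at 5.07 RPKM in TA replicate 3, at 0.0300 RPKM in TA replicate 1 and at 0.110 RPKM in GS replicate 1, and listed at 0 in the remaining 3. Tnnc1, the slow and cardiac troponin C, was at 3.11 RPKM in TA replicate 3 and 0.290 RPKM in GS replicate 1, and listed at 0 in the others. Tnni3, the cardiac troponin I, was listed at 0 in all 6 libraries. Tnni1 was therefore the only troponin gene above 1 RPKM in the 5 libraries other than TA replicate 3. In those 5 libraries no troponin T or troponin C was at a level comparable to that of Tnni1.

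**Figure D2:**
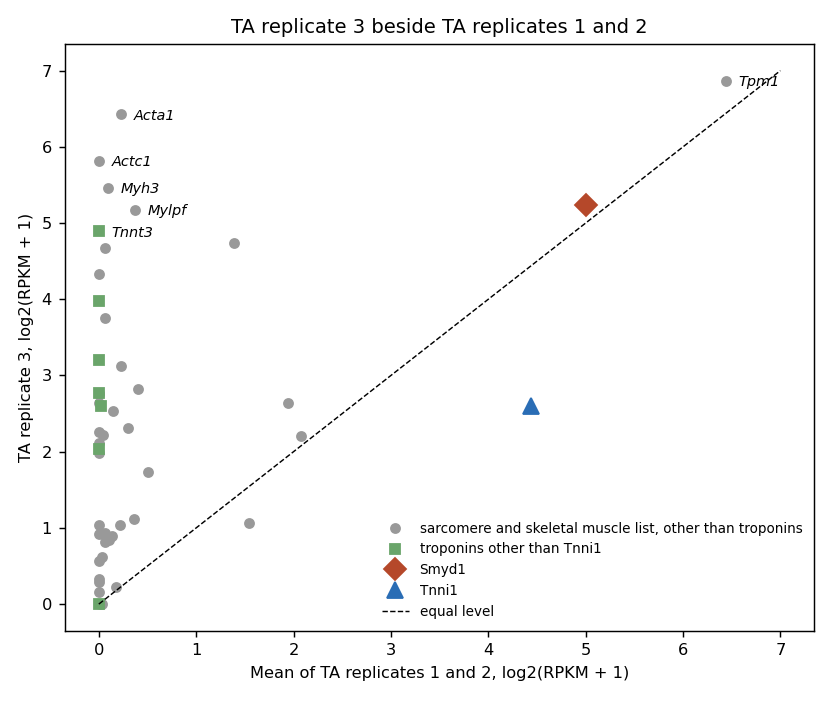
TA replicate 3 (vertical axis) against the mean of TA replicates 1 and 2 (horizontal axis), both as log2(RPKM + 1), for the sarcomere and skeletal muscle list, the troponin genes, Smyd1 and Tnni1, with a dashed line of equal level. Acta1, Actc1, Myh3, Mylpf and Tnnt3 stand on the left at high levels in TA replicate 3, Smyd1 lies near the line and Tnni1 lies below it.

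The wider sarcomere and skeletal muscle list had 46 genes. Of these 44 were above 0 in TA replicate 3 and 33 reached 1 RPKM there, against 11 to 25 above 0 and 3 to 6 at 1 RPKM or more in the other libraries. The 5 highest in TA replicate 3 were Tpm1, Acta1, Actc1, Myh3 and Mylpf. Tpm1, a tropomyosin with forms outside muscle, was at 116 RPKM there and at 65.1 to 88.6 RPKM in the other libraries. Acta1, the skeletal actin, reached 84.9 RPKM there and otherwise no more than 5.01 RPKM, in GS replicate 2. Actc1 and Myh3, the cardiac actin and embryonic myosin of developing muscle, were at 55.3 and 43.2 RPKM, and Mylpf, a fast myosin light chain, at 35.1 RPKM. Myh3 reached at most 0.111 RPKM and Mylpf at most 0.592 RPKM in any other library. Smyd1 at 31.0 RPKM in TA replicate 2 and Tnni1 at 17.7 RPKM there were far above every member of this list in that library other than Tpm1, the next being Myl2, a slow and cardiac myosin light chain, at 3.08 RPKM.

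Genes of slow and fast fibres were compared in the same way. The 11 slow fibre genes, Tnni1 included, summed to 51.1 to 84.2 RPKM per library, much of it from Atp2a2, the calcium pump of slow muscle and many other tissues, at 33.3 to 55.6 RPKM. Myl3, another slow myosin light chain, was highest in GS replicate 1, at 9.64 RPKM, and was at 6.06 RPKM in TA replicate 3. The sum of the 13 fast fibre genes was 103 RPKM in TA replicate 3, against 0.674 RPKM or less in each of the other 5 libraries. In TA replicates 1 and 2 the slow genes Tnnt1, Tnnc1 and Myh7, the slow myosin, were each at most at 0.153 RPKM. Myl2 was at 0.739 and 3.08 RPKM there and the tropomyosin Tpm3 at 2.79 and 1.72 RPKM. Myh7, Myl2 and Tpm3 were singled out after their values were seen.

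The genes of these lists were read from a limma test of TA against GS over all 10828 genes on log2(RPKM + 1), in which a Benjamini-Hochberg adjusted p under 0.05 called 33 genes, or 0.305%, 19 of them higher in TA and 14 higher in GS. With libraries centred on their median these were 11 and 17. All 6 members passed the filter of a mean of 1 RPKM. Leaving Smyd1 and Tnni1 aside, 3 of 7 troponin genes, 18 of 46 sarcomere genes, 3 of 10 slow fibre genes and 5 of 13 fast fibre genes passed it, and limma called 0 of them, with 0 also at an unadjusted p under 0.05, which 10.4% of all genes tested had. The median log2 difference of the 18 sarcomere genes was 1.12, beside 0.24 for all genes tested. Many of the 18 passed the filter through TA replicate 3 alone, and without that library 5 passed, with a median of 0.21 beside 0.19 for all genes, 0 called and 1 at an unadjusted p under 0.05. In that fit limma called 0.0188% of all genes, and 7.01% had an unadjusted p under 0.05. Of the slow fibre genes 3 passed without TA replicate 3, again with 0 called and 1 at an unadjusted p under 0.05.

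Levels of the other 4 Smyd genes overlapped between the muscles. Smyd2 (chromosome 1, 191704371 to 191746242, minus strand, mm9), known for methylating histone H3 and tumour suppressor proteins, had levels of 17.6, 11.4 and 16.4 RPKM in TA replicates 1, 2 and 3. Its GS levels were 21.5, 8.43 and 10.8 RPKM. The groups overlapped, with GS replicate 1 highest and GS replicate 2 lowest. The log2 difference, TA minus GS, was 0.22 ± 0.42 (SE), with a limma adjusted p of 0.881. It was -0.039 without GS replicate 2 and 0.59 without GS replicate 1. Smyd3 (chromosome 1, 180882091 to 181448172, minus strand), which methylates the kinase Map3k2, had TA levels of 5.53, 5.23 and 10.1 RPKM, while its GS levels were 8.94, 5.52 and 3.72 RPKM. TA replicate 3 and GS replicate 1 were the high libraries, and the difference was 0.19 ± 0.44 with a limma adjusted p of 0.906. The Smyd3 difference was -0.078 without TA replicate 3, -0.069 without GS replicate 3 and -0.019 with libraries centred on their median, so its direction is not settled.

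Smyd5 (chromosome 6, 85381983 to 85396429, plus strand), a histone methyltransferase of the family, had TA levels of 6.86, 1.97 and 6.39 RPKM, while its GS levels were 3.78, 3.33 and 4.07 RPKM. Its 3 GS values lay between the low TA replicate 2 and the other TA libraries, and the difference was 0.24 ± 0.48 with a limma adjusted p of 0.890, and it was -0.023 after quantile normalization and -0.011 without TA replicate 1. Smyd4 (chromosome 11, 75161935 to 75219207, plus strand), a member that also carries tetratricopeptide repeats, had the family's lowest mean over the 6 libraries. Its TA levels were 0.696, 0.474 and 0.231 RPKM. In GS it reached 2.70 RPKM in replicate 1 and 1.91 RPKM in replicate 3 and was listed at 0 in replicate 2. GS replicates 1 and 3 lay above all TA libraries and GS replicate 2 below them, and the difference was -0.60 ± 0.59 with a limma adjusted p of 0.759. Its mean over the 6 libraries lay just above the filter, which it passed through the GS libraries. Limma called 0 of these 4 genes, and 0 had an unadjusted p under 0.05. The median log2 difference over all genes tested was 0.24, and relative to it Smyd2 was at -0.014, Smyd3 at -0.050 and Smyd4 at -0.84. The SE of these differences was 0.42 to 0.59, and with 3 pools a group even differences several times the SE could go uncalled. Pvalb, for instance, differed by 2.46 ± 0.58 and had a limma adjusted p of 0.168.

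The family's makeup followed from these levels. The 5 Smyd genes summed to 61.7, 50.0 and 69.8 RPKM in TA replicates 1, 2 and 3 and to 37.8, 17.3 and 24.8 RPKM in GS replicates 1, 2 and 3. Smyd1 made up 54.9% ± 6.16 of that sum in TA and 6.50% ± 9.27 in GS (SD, n = 3). Left without Smyd1, the family summed to 27.6 ± 7.52 RPKM over the TA pools and 24.9 ± 10.5 RPKM over the GS pools, and the ranges overlapped. In every TA library the order began with Smyd1, followed by Smyd2, while in every GS library Smyd2 was highest. In TA the ranges of Smyd3 and Smyd5 overlapped. In GS, Smyd2 lay above Smyd3 in every library although their ranges over the 3 libraries overlapped, and the ranges of Smyd3 and Smyd5, of Smyd5 and Smyd1 and of Smyd1 and Smyd4 overlapped.

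**Figure D3:**
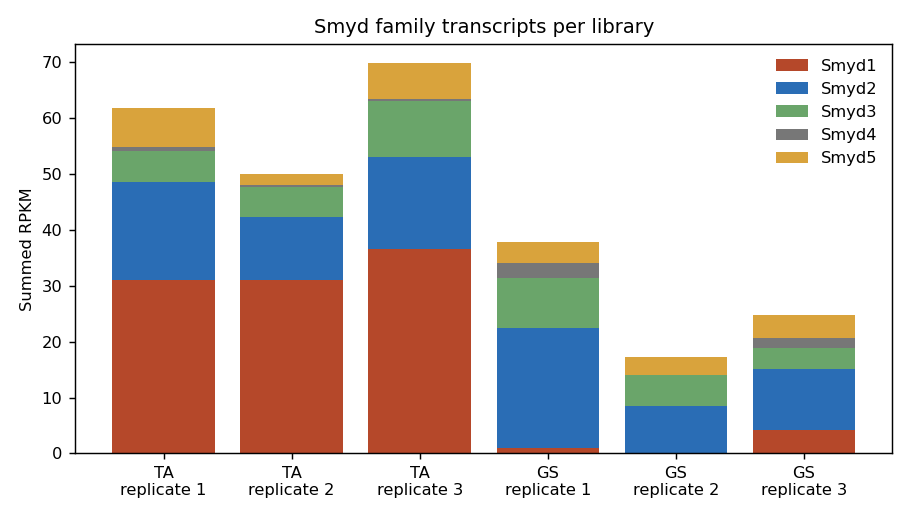
Summed RPKM of the 5 Smyd genes in each library, stacked by gene, with libraries on the horizontal axis. Smyd1 makes up 50.3% to 61.9% of the bar in TA libraries and at most 17.1% in GS libraries, while the rest of the bar overlaps between muscles.

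No transcripts of any 2 Smyd genes in GENCODE M21 shared a stretch of 36 bases, and Tnni1 shared 0 such stretches with Tnni2 or Tnni3. No other gene in the deposited table overlapped any of the 6 members. Next to Smyd1 lie Fabp1, the liver fatty acid binding protein, 8916 bases away and listed at 0 in all 6 libraries, and Krcc1, 9437 bases away. Krcc1 had TA levels of 9.88, 10.5 and 7.30 RPKM and GS levels of 17.1, 0.135 and 3.99 RPKM, which overlapped. Next to Tnni1 lie Phlda3, at 0.260 to 13.8 RPKM and highest in GS replicate 3, and Lad1, listed at 0 throughout.

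Genes that work with Smyd proteins, or control them in muscle, were detected in part. Of these 23 genes, 11 to 16 reached 1 RPKM in a library, and the myogenic factors Myod1 and Myf5 were listed at 0 in all 6. In the list 15 passed the filter and limma called 0, with 2 at an unadjusted p under 0.05, a share near the 10.4% of all genes, and their median log2 difference was 0.33 beside 0.24 for all genes. Hsp90ab1, a chaperone that binds Smyd proteins, was the highest, with 541 ± 115 RPKM over the TA pools against 395 ± 30.8 RPKM over the GS pools (SD, n = 3) and a limma adjusted p of 0.589. Mef2a, a MEF2 transcription factor, had 50.3 ± 4.14 RPKM against 49.1 ± 16.4 RPKM, and Hdac2, a histone deacetylase, 28.6 ± 17.3 RPKM against 27.8 ± 9.73 RPKM. A further 3 genes were chosen for their link to Smyd1 after their values were seen. Mef2c, which acts on the Smyd1 gene in heart, had TA levels of 23.1, 23.2 and 23.8 RPKM and GS levels of 10.5, 20.8 and 14.8 RPKM, with a limma adjusted p of 0.589. Naca was at 5.42 RPKM in TA replicate 3 and at 0.122 to 1.12 RPKM in the others, and Unc45b, a myosin chaperone, was at 0.790 RPKM in TA replicate 3 and listed at 0 elsewhere. The Naca value is for the whole gene and does not tell its muscle form from the general one.

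Other methyltransferases with a SET domain were counted for comparison. Of 43 listed, 29 passed the filter, and limma called 0, with 2 at an unadjusted p under 0.05, beside 10.4% of all genes tested. Their median log2 difference was 0.01, beside 0.24 for all genes tested. Setd8, which places a methyl group on histone H4, was the highest on average and varied most within GS, at 36.2, 71.1 and 10.4 RPKM in replicates 1, 2 and 3, against 8.81 to 15.0 RPKM in TA. Nsd1, a histone H3 methyltransferase, had 16.5 ± 1.68 RPKM over the TA pools against 12.8 ± 3.38 RPKM over the GS pools, and Setd5 13.1 ± 4.39 RPKM against 14.6 ± 6.10 RPKM. In TA each of the 43 genes had a lower mean than Smyd1, while in GS the means of Setd8, Nsd1 and Setd5 lay above it. Smyd1 was chosen for its TA levels, so nothing is read from this ranking.

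The genes whose levels followed Smyd1 and Tnni1 most closely over the 6 libraries were taken by Pearson's r on log2(RPKM + 1), as a description. For Smyd1 they were Slc8a1, a sodium and calcium exchanger, with r = 0.993, Ttc39b with 0.992, Arhgef11 with 0.991, Chmp2b, of the endosomal sorting machinery, with 0.991, and Cntn4, a contactin adhesion protein, with 0.991. Slc8a1 had TA levels of 5.02, 6.19 and 5.25 RPKM and GS levels of 0.801, 0.116 and 1.76 RPKM. Like Smyd1, all 5 were higher in GS replicate 3 than in the other GS libraries, which comes with their choice by r over these same values. Over the 6 libraries 149 genes reached an r of 0.95 with Smyd1, against 4 with Tnni1. The points share the split into 3 TA and 3 GS libraries and their depth. For Tnni1 the closest genes were Eif3k, of the translation initiation complex, with r = 0.977, Izumo4 with 0.966 and Rab40c with 0.957. Next came the homeodomain cofactor Meis3 with 0.953 and Cyth1, an activator of Arf proteins, with 0.94985. Meis3 had TA levels of 23.2, 17.2 and 3.83 RPKM and GS levels of 6.29, 4.09 and 6.50 RPKM. It too was lowest in TA replicate 3, which again comes with the choice. Smyd1 and Tnni1 had r = 0.40 with each other. Neither set of 5 held a sarcomere gene, and nothing is read from this, since both sets were chosen by these values.

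**Figure D4:**
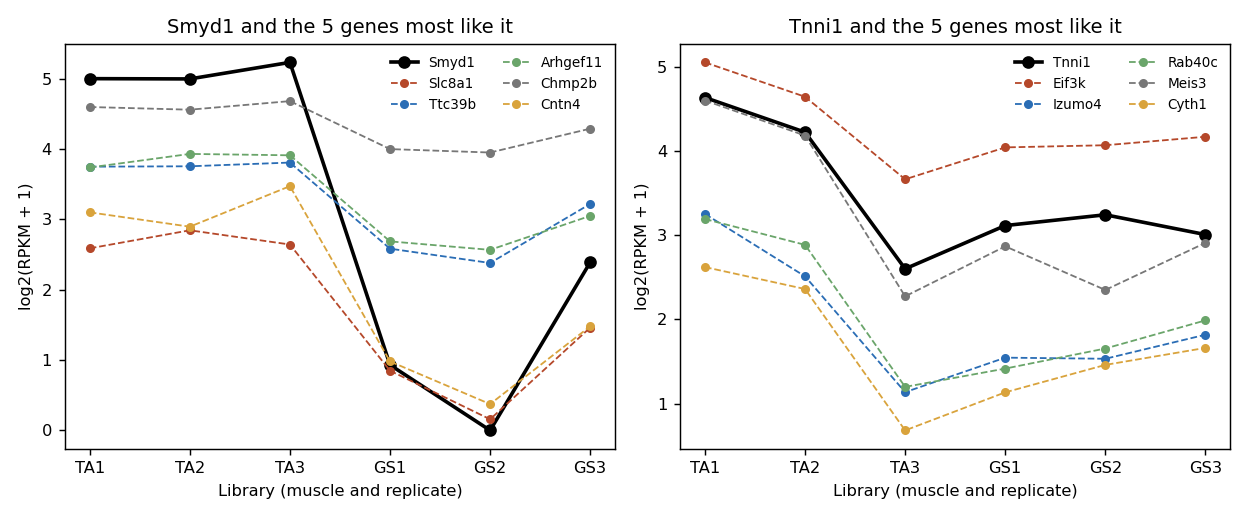
Level, as log2(RPKM + 1), of Smyd1 (left) and Tnni1 (right) in black and of the 5 genes most like each in colour, over the 6 libraries on the horizontal axis. Lines join the points of 1 gene and carry no order. Smyd1 and its group are high in all TA libraries, while Tnni1 and its group are high in TA replicates 1 and 2 and lowest in TA replicate 3.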

How the data were processed

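The authors deposited, per the file headers, reads and RPKM per gene for 6 libraries, RPKM being reads per gene length and per library total, and 2 lists with a signal and an RPKM per muscle, a ratio (fold), and p-values. Both kinds of column in the 6-library table hold values below 0 in 683 genes and were treated as a score, per the deposited values; these genes were left out. A 0 is called listed at 0, and no counting intervals are given. Bowtie 0.12.9, DESeq and mm9 are named in the submitters' processing notes. Per the labels' protocols, cDNA was made with an Ovation kit and libraries with a Nextera kit. The sources used here do not name the counting program, its annotation or its use of strand.

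One entry per symbol, that with the highest mean, was kept at a mean of at least 1 RPKM. The limma test (version 3.58.1, R 4.3.3) set TA against GS on log2(RPKM + 1), which understates changes of low genes, with a trend and Benjamini-Hochberg adjustment over 10828 genes, and tested on simulated data. The members, the lists and the naming rule were chosen with earlier results of these data known. That rule named all members, every troponin, the 5 sarcomere genes highest in TA replicate 3, called genes and the 3 highest of other lists, the 5 genes most like Smyd1 and Tnni1 (gene models with no official symbol left out), and their neighbours.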

Additional observations from a re-analysis of the deposited data

How the results depend on the processing

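Limma called 0 of Smyd2, Smyd3, Smyd4 and Smyd5 under each alternative in which they passed the filter. Centring libraries on their median gave -0.019 for Smyd3, quantile normalization gave -0.023 for Smyd5, and the other differences kept their sign under both. Leaving out 1 library gave -0.039 to 0.59 for Smyd2 (negative without GS replicate 2), -0.078 to 0.47 for Smyd3 (-0.069 without GS replicate 3, lowest without TA replicate 3), and -0.011 to 0.69 for Smyd5 (negative without TA replicate 1). Smyd4 fell below the filter without GS replicate 1 or 3, and was at -1.17 to -0.48 otherwise. Smyd1 ranged from 3.42 to 4.61 and Tnni1 from 0.29 to 1.31 with 1 library left out. With a pseudocount of 0.1 Smyd1 was at 5.44. The counts of genes higher in TA and GS, 19 and 14, were 7 and 6 with that pseudocount, 9 and 8 at a mean of at least 5 RPKM, and 11 and 17 after centring. Without a filter limma called 0 in each direction, with 1501 of 18604 genes at an unadjusted p under 0.05. Leaving out 1 library gave 1 to 19 and 1 to 10, with 1 and 1 without TA replicate 3, 1 and 2 without TA replicate 1 or TA replicate 2, 3 and 3 without GS replicate 1, and 16 and 7 without GS replicate 3. As a replicate block the shared numbers gave 8 and 8. Deviations of libraries with the same number had correlations of -0.074, -0.019 and -0.14, so the numbers were not taken to pair the samples. The count of list members called without TA replicate 3 was an alternative chosen after seeing the data. The cause of these changes was not tested.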
